A study of Homo sapiens with 24 samples.

Results

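Gene expression in untreated HEK293 cells that carried EVI1-AQA was set against that in untreated cells carrying the empty vector. HEK293 is an established human embryonic kidney cell line. These 6 of the 24 samples are 3 per group, chosen by their labels for plasmid and treatment, and each EVI1-AQA sample was paired with the empty vector sample of its batch. Genes are described for the 1131 of 11579 rows of the deposited table whose identifiers lie on chromosome 1 of GRCh38. The restriction to chromosome 1 has a measured reason. There, 50.7% of annotated protein-coding genes (1045 of 2061) and 2.39% of other genes (86 of 3598) had a row, while on chromosomes 2 to 22 the shares were 19.34% and 16.41%, which leaves the row labels of those chromosomes in doubt. Rows elsewhere therefore enter only as unnamed distributions.

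EVI1-AQA cells were transiently transfected with pCMV-EVI1-AQA-flag and control cells with pCMV-flag, in cultures that were not yet confluent, and neither group received H2O2 over the 8 h of the experiment. The remaining groups, each with 3 samples, were untransfected cells and cells with pCMV-EVI1-WT-flag left untreated, and all 4 kinds of cell after 150 μM H2O2 for 8 h. Both EVI1 plasmids express a flag-tagged protein from a viral promoter in a cell line that is not haematopoietic, and a culture after transient transfection mixes cells with and without plasmid. A smaller share of transfected cells and a smaller effect per cell cannot be told apart in such RNA, nor can fewer cells of a kind and less RNA per cell. The growth notes attached to the samples describe a reporter assay with further plasmids, and whether these were present in the sequenced cells is not stated. Nothing in the labels says that the 3 batches were separate cultures, so p-values measure the spread between these samples only.

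EVI1 is a zinc-finger protein that binds DNA and represses or activates genes, partly through corepressors such as histone deacetylases, and it is needed by blood stem cells and harmful when overproduced in leukaemia. Its zinc fingers lie in an amino-terminal group that recognises GATA-like sequence and a carboxy-terminal group with a preference of its own. In EVI1-AQA, both serines of a carboxy-terminal SQS motif, a site for kinases of the DNA damage response, are replaced by alanine, so that this motif cannot be phosphorylated. Untreated cells ask what the altered protein does without added damage.

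The values are log2 expression values from sequencing of the 3′ ends of polyadenylated transcripts, and every row has a mean of 0 within each batch of 8 samples (largest departure 4.5e-06). A value of 0.50 thus says that a transcript lay that far above its batch mean, and says nothing about how abundant it was. For this reason levels are not compared between genes, the markers of the cell line could not be checked, and the depth per sample is unknown. The row of the transfected gene itself was not analysed here. All rows were searched, by the labels of the untreated samples, for a gap over 2 on the log2 scale between EVI1-transfected and other samples. Only 1 row had such a gap, an unnamed row outside chromosome 1, with a gap of 4.25. Its agreement with the untreated labels follows from that search and does not check them, while the H2O2 samples played no part in it. In that row the untreated EVI1-AQA samples had values of 4.14, 4.05 and 2.62 and the empty vector samples values of -2.18, -4.10 and -3.47 in batches 1, 2 and 3. In the H2O2 samples, 3 libraries went against their labels in this row: EVI1-AQA replicate 1 at -2.60, empty vector replicate 2 at 4.36 and EVI1-WT replicate 2 at -4.38. None of them is in the untreated comparison, but all 3 enter the shared estimate of spread, and EVI1-AQA replicate 1 and empty vector replicate 2 also enter the H2O2 comparison, where values without the 3 libraries are given beside the others.

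The promoters below are those of genes that led the comparison by p, with the first suitable gene in each direction and a further one, preferring a window that held a motif. Each is the 250 bases before the RefSeq start on GRCh38.p14, written 5′ to 3′ on the gene's strand, and windows that reached at least 30 bases into an annotated coding gene were passed over. Capitals mark a match to 1 of 3 words searched on both strands. AGATAA and GATGAG follow the preferences of the amino- and carboxy-terminal zinc fingers, and AGGAAG holds GGAA, the core of ETS factor sites. GGAA with other flanking bases was not searched for or marked. RRAGC and VANGL2 were higher and TRAF5 and FOXD2 lower with EVI1-AQA, at chr1:38859773-38860022 (minus strand), chr1:160400314-160400563 (plus), chr1:211326385-211326634 (plus) and chr1:47437794-47438043 (plus).
RRAGC: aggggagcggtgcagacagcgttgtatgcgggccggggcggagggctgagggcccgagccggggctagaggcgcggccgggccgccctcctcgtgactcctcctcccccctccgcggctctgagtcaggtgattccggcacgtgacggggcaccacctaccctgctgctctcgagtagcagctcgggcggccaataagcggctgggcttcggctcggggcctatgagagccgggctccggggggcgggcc
VANGL2: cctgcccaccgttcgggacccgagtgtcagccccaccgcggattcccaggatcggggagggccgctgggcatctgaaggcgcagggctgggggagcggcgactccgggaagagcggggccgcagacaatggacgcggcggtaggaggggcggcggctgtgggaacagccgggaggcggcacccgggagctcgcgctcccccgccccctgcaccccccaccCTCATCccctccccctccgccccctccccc
TRAF5: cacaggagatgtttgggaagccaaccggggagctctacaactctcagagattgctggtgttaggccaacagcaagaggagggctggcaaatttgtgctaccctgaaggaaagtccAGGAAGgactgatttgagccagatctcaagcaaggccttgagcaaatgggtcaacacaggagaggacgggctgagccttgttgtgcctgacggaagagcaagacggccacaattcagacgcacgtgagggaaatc
FOXD2: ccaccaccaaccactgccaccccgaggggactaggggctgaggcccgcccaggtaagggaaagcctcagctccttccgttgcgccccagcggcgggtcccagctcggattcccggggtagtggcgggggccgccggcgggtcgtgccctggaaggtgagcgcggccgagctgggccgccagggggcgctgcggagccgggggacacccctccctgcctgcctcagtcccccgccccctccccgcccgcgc
The windows of RRAGC, VANGL2 and FOXD2 were rich in G and C, at 73.6%, 76.4% and 76.8%, and that of TRAF5 was less so, at 53.6%. VANGL2 held GATGAG on the reverse strand, starting 30 bases before the start, and TRAF5 held AGGAAG 135 bases before it. RRAGC and FOXD2 held none of the words.

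Over the rows on chromosome 1 with a promoter entry (938 of 1131), AGATAA was found in 4.37%, GATGAG in 5.97% and AGGAAG in 27.4% of windows, against 9.17%, 10.1% and 28.7% of all 35116 promoters of the same length. Among the 66 matched rows that were higher with EVI1-AQA, 3 windows (4.55%) held AGATAA, 6 (9.09%) GATGAG and 13 (19.7%) AGGAAG. Among the 51 matched rows that were lower, 1 window (1.96%) held AGATAA, 2 (3.92%) GATGAG and 11 (21.6%) AGGAAG. Words can overlap at their ends and each was counted on its own. A match describes letters, and these shares carry no test.

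Differences were tested in limma, with the batch as a block, and the threshold was an unadjusted p below 0.05. By this threshold, 76 rows on chromosome 1 were higher and 71 lower in EVI1-AQA cells than in control cells. The study applied the same p in a t-test, to transcripts that had already passed a stricter group ANOVA. No such filter was applied here, so these counts cannot be set beside those of the study. Genes at the top of the higher group act in nutrient sensing (RRAGC), replication origins (ORC1) and cell polarity (VANGL2), and genes at the top of the lower group in protein trimming (RNPEP) and cytokine receptor signalling (TRAF5). The changes were moderate. The median difference was 0.515 over the higher rows and -0.558 over the lower rows, differences over all 1131 rows ran from -1.10 to 1.35, and 7 of the 147 rows past the threshold exceeded 1 in size. Over the whole table, 6.38% of rows were higher, 5.45% lower and 11.8% either at this threshold. The share on chromosome 1 (147 of 1131) lay near that background and near the 11.7% (1223 of 10448) of the remaining rows. After Benjamini-Hochberg adjustment over all 11579 rows, 0 rows passed 0.05 on chromosome 1 or elsewhere, and the lowest limma adjusted p was 0.108. In what follows a row is called higher or lower, or said to pass, by the unadjusted threshold, and the adjusted p beside it is over all rows. Without the block the count was 10, of which 2 lay on chromosome 1, RRAGC and ORC1, both with an adjusted p of 0.0312. That fit has 16 residual degrees of freedom against 14 and takes no account of the batch centring already in the values. Batch 1 carried much of the count, since without it 37 rows on chromosome 1 were higher and 33 lower.

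The groups did not overlap in 263 rows on chromosome 1, with all EVI1-AQA values above all empty vector values in 135 and below in 128. Over the table such rows made up 21.8%. Of the 76 higher rows, 74 moved the same way in all 3 batches and 68 had groups that did not overlap, and of the 71 lower rows these were 65 and 61. These rows were chosen by p from the same samples, so such counts follow largely from the choice and add no support. An exact permutation test of 3 against 3 samples that ignores the pairing cannot give a two-sided p below 0.1. Keeping the pairs by batch allows fewer arrangements and a higher floor, so no single row can pass by either. The median difference over chromosome 1 was -0.007 with an SD over rows of 0.295, and over the remaining rows -0.0106 with an SD of 0.305. In kind, 75 of the 76 higher rows were protein coding and 1 was a long non-coding RNA, while 54 of the lower rows were coding, 7 were long non-coding RNAs and 10 were pseudogenes. Of all 1131 rows on chromosome 1, 1045 were coding and 86 were not. The difference in kind between the directions was not tested. Pseudogene rows can hold reads of their parent genes. Across all 10 alternative fits, 14 of the higher and 11 of the lower rows stayed past the threshold. These fits draw on the same samples, and the matching count over the whole table was not taken.

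**Figure D1:**
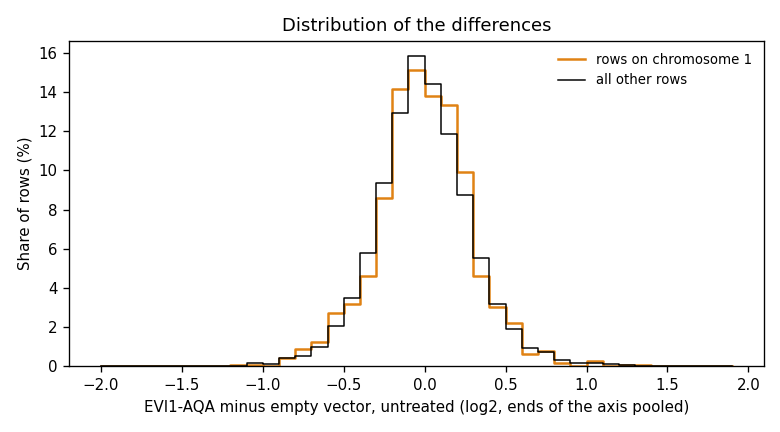
Share of rows (%) by log2 difference, EVI1-AQA minus empty vector in untreated cells, for the 1131 rows on chromosome 1 and the 10448 other rows, in steps of 0.1. The outlines nearly coincide, with medians of -0.007 and -0.0106.

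**Figure D2:**
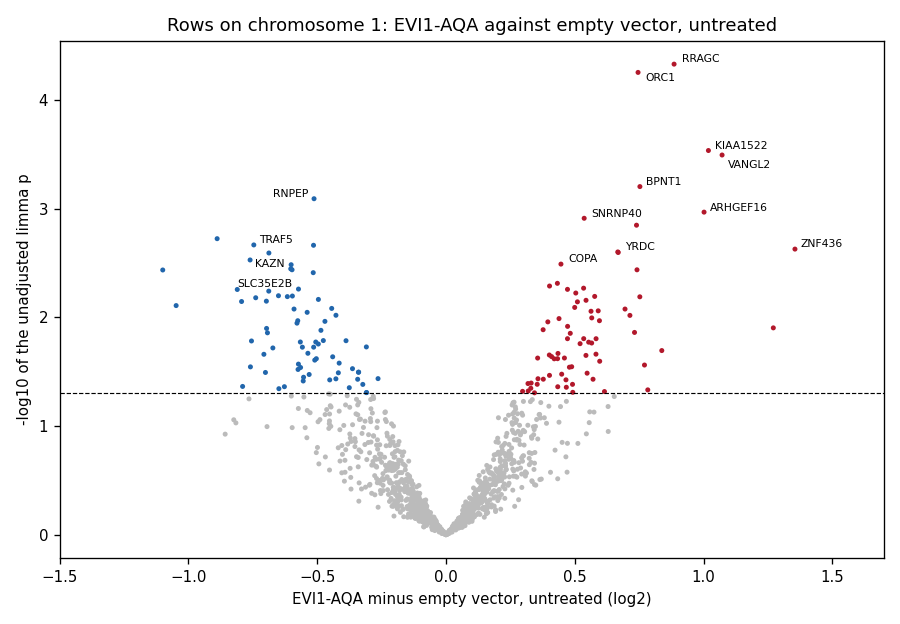
Each point is a row on chromosome 1. The horizontal axis gives the log2 difference between EVI1-AQA and empty vector in untreated cells and the vertical axis -log10 of the unadjusted limma p, with p of 0.05 as a dashed line. Red points (76) were higher and blue points (71) lower, and coding genes among the 12 first by p in each direction are labelled where there is room.

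RRAGC, a GTPase that reports amino acids to the TOR kinase at the lysosome, came first by p. The gene lies on the minus strand at chr1:38838198-38859772. Its values were 0.50, 0.25 and 0.27 with EVI1-AQA and -0.73, -0.63 and -0.28 with the empty vector in batches 1, 2 and 3. All EVI1-AQA samples lay above all empty vector samples, and the log2 difference was 0.89 (standard error 0.17, limma adjusted p = 0.108). ORC1, the largest subunit of the origin recognition complex that marks where DNA replication starts, lies at chr1:52372829-52404423 on the minus strand. It was at 0.35, 0.33 and 0.26 with EVI1-AQA and at -0.50, -0.41 and -0.39 with the empty vector. These groups were narrow and far apart, and they differed by 0.75 (standard error 0.14, limma adjusted p = 0.108).

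VANGL2, a membrane protein of planar cell polarity (chr1:160400564-160428670, plus strand), had values of 0.35, 0.57 and 0.25 with EVI1-AQA and of -0.91, -0.52 and -0.63 with the empty vector. KIAA1522 (chr1:32741830-32774970, plus strand) had values of 0.24, 0.21 and 0.76 against -0.79, -0.28 and -0.77. In both genes the groups were apart, with differences of 1.07 (standard error 0.24, limma adjusted p = 0.154) and 1.02 (standard error 0.23, limma adjusted p = 0.154). The 3′ end of KIAA1522 faces that of YARS, the tyrosine tRNA synthetase, on the opposite strand at a distance of 267 bases, and YARS moved the other way, by -0.48. Whether reads were counted by strand is not given in the sources used here.

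ARHGEF16, an exchange factor for small GTPases, had EVI1-AQA values of 1.04, 0.55 and 0.51 and empty vector values of -0.46, -0.42 and -0.03, a difference of 1.00 (standard error 0.26, limma adjusted p = 0.208). ZNF436, a zinc-finger protein, showed the largest difference on chromosome 1, at 1.35 (standard error 0.39, limma adjusted p = 0.23), but also a wide spread, with values of 0.28, 0.69 and 0.78 against -1.37, -0.05 and -0.89. Its empty vector sample of batch 2 lay close to the EVI1-AQA range while the other two lay far below. The 6 remaining rows among the 12 highest-ranked were BPNT1, a nucleotidase of sulphur metabolism (0.75), SNRNP40, a spliceosomal protein (0.54), the long non-coding RNA RP11-295G20.2 (0.74), YRDC, an enzyme of tRNA modification (0.67), DESI2, a peptidase (0.67), and COPA, a coat protein of Golgi vesicles (0.45). Their groups did not overlap, and their limma adjusted p ran from 0.205 for BPNT1 to 0.23 for COPA. Without batch 1, YRDC fell short of the threshold (difference 0.508), and the other 11 passed without each batch in turn.

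RNPEP, an aminopeptidase that removes basic residues, came first among the lower rows (chr1:201982372-202006147, plus strand). Its values were -0.20, -0.18 and -0.17 with EVI1-AQA and 0.46, 0.21 and 0.32 with the empty vector. The EVI1-AQA samples hardly varied and lay below all controls, by -0.51 (standard error 0.13, limma adjusted p = 0.208). TRAF5, an adaptor of receptors of the tumour necrosis factor family (chr1:211326615-211374946, plus strand), was at 0.06, -0.63 and -0.47 with EVI1-AQA and at 0.30, 0.33 and 0.55 with the empty vector. Its groups were apart as well, by the smallest margin in batch 1, with a difference of -0.75 (standard error 0.21, limma adjusted p = 0.23).

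MKNK1, a kinase that phosphorylates a cap-binding translation factor, was at -0.23, -0.23 and -0.40 with EVI1-AQA and at 0.11, 0.22 and 0.36 with the empty vector, a difference of -0.51 (standard error 0.15, limma adjusted p = 0.23). C1orf50 was at -0.72, -0.33 and -0.41 against 0.33, -0.07 and 0.35, a difference of -0.69 (standard error 0.20, limma adjusted p = 0.23). FOXD2, a forkhead transcription factor, differed clearly in batches 1 and 2 but barely in batch 3, with values of -0.71, -0.28 and 0.04 against 0.34, 0.44 and 0.07 (difference -0.60, standard error 0.18, limma adjusted p = 0.232). The 3 genes kept their direction in every batch, but each lost the threshold without 1 batch: MKNK1 without batch 3 (-0.39), C1orf50 without batch 1 (-0.51) and FOXD2 without batch 1 (-0.372). DUSP12, a dual-specificity phosphatase (-0.52), did so without batch 1 (-0.416), and SLC35E2B, a member of a sugar transporter family (-0.57), without batch 3 (-0.34).

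KAZN, a protein of cell junctions and the cytoskeleton, had a difference of -0.60 (standard error 0.18, limma adjusted p = 0.232) with groups that did not overlap. Of the 12 lowest rows by p, 4 were not coding. RP4-665J23.1, named LINC02609 in GENCODE, was at -0.34, -0.28 and -0.73 with EVI1-AQA and at 0.39, 0.51 and 0.43 with the empty vector, a difference of -0.89. RP3-395M20.12 showed the lowest difference on chromosome 1, at -1.10 (standard error 0.33, limma adjusted p = 0.232), with values of -0.53, 0.03 and -0.78 against 0.84, 0.48 and 0.71. RP4-758J18.2, the antisense RNA MRPL20-AS1, differed by -0.60, and since its 3′ end lies 137 bases from that of MRPL20, which it overlaps, reads of the pair may not be told apart without strand. The pseudogene RP11-142L4.2 differed by -0.76. Of all 57 rows named by the rules for naming, 39 overlap another annotated gene, 17 of them a coding gene.

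**Figure D3:**
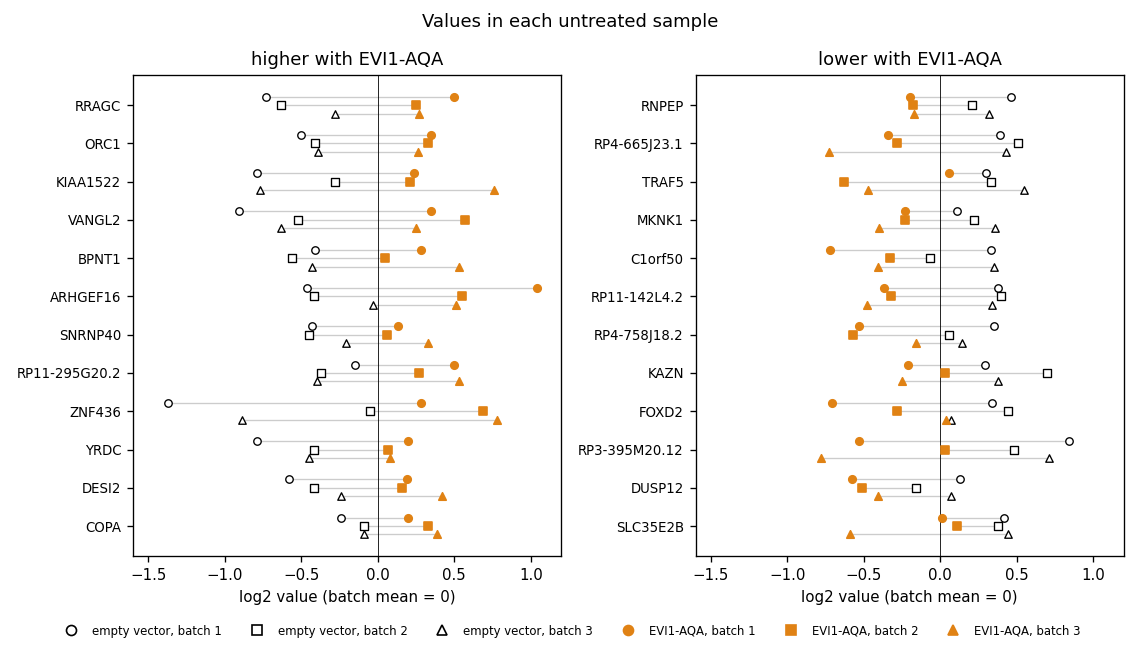
Log2 values of the 12 rows first by p in each direction in the 6 untreated samples, with 0 as the batch mean. Open symbols are empty vector samples, filled symbols EVI1-AQA samples, the symbol shape gives the batch and a grey line joins the samples of a batch. RNPEP with EVI1-AQA stayed between -0.20 and -0.17, while ZNF436 with the empty vector ran from -1.37 to -0.05.

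A gene can pass the threshold and yet differ between batches. FGGY, a carbohydrate kinase, was chosen once its values had been seen, as the row past the threshold with a difference over 1 in size that did not keep its direction. It was at -0.75, -0.35 and 0.53 with EVI1-AQA and at 1.28, 1.38 and -0.08 with the empty vector. The EVI1-AQA sample lay far below its control in batches 1 and 2 and above it in batch 3, and the mean difference of -1.05 (standard error 0.35, limma adjusted p = 0.25) became -0.559 without batch 1 and no longer passed.

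Genes that work with EVI1 were looked at next. HDAC1, RBBP4 and KDM1A belong to histone deacetylase complexes, SETDB1 methylates histones, SKI is a corepressor of SMAD proteins, and PRDM2 is a relative of EVI1. KDM1A, a histone demethylase, was the only one of these to pass the threshold. It was at 0.07, 0.28 and -0.10 with EVI1-AQA and at -0.18, -0.20 and -0.36 with the empty vector, and the groups did not overlap. The difference was 0.33 (standard error 0.15, limma adjusted p = 0.402), and it lost the threshold without batch 1 (0.37) or batch 2 (0.255). HDAC1 was at 0.13, 0.24 and 0.15 against -0.11, -0.07 and -0.09. Its groups did not overlap either, but its difference of 0.26 (standard error 0.13, limma adjusted p = 0.439) did not pass, although it did without the block.

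The other genes of this kind described here did not pass. SKI differed by 0.24 (standard error 0.16), RBBP4 by 0.092 (0.17), SETDB1 by 0.064 (0.14) and PRDM2 by 0.00067 (0.16). JUN and ATF3, early transcription factors of the stress response, differed by -0.34 and -0.14, each with a standard error of 0.34. Limma adjusted p ran from 0.567 for SKI to 0.999 for PRDM2 over these 6 genes. The sign depended on which batches were kept for PRDM2, RBBP4 (-0.0483 without batch 3) and SETDB1 (-0.0019 without batch 3).

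Lists of genes with shared roles were then described by their counts and medians, beside the median of -0.0103 over all rows and the 11.8% of rows past the threshold. Of 35 chromatin regulators and corepressors, 2 were higher and 4 lower, with a median of 0.088. The higher ones were KDM1A and TAF13, a subunit of a general transcription factor (0.51, limma adjusted p = 0.242). The lower ones were SMYD3, a lysine methyltransferase (-0.71, adjusted p = 0.335), RNF2, the ubiquitin ligase of Polycomb complexes (-0.39, adjusted p = 0.308), CHD1L, a remodelling enzyme (-0.32, adjusted p = 0.393), and KDM4A, a histone demethylase (-0.31, adjusted p = 0.418). In RNF2 the values were -0.30, -0.24 and -0.47 with EVI1-AQA and -0.11, 0.18 and 0.08 with the empty vector, so that the groups were apart. None of 14 genes of TGF-β, BMP and Wnt signalling passed (median 0.059).

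Of 19 genes of the p53 pathway and apoptosis, 4 were higher and 0 lower, with a list median of 0.025. CASP9, the initiator protease of the mitochondrial death pathway, was at 0.23, 0.31 and 0.35 with EVI1-AQA and at 0.10, -0.58 and -0.87 with the empty vector, a difference of 0.74 (limma adjusted p = 0.232). The EVI1-AQA samples were alike, and the controls differed among themselves by more than the groups did. BCL10, an adaptor that activates NF-κB (0.75, adjusted p = 0.242), SFN, a 14-3-3 protein that p53 induces (0.84, adjusted p = 0.328), and EPHA2, a receptor tyrosine kinase (0.78, adjusted p = 0.409), had their lowest empty vector values in batch 1 or 2. Without batch 1 their differences were 0.447, 0.532 and 0.411, and none passed, while CASP9 did not pass without batch 3 (0.504). The members act in different ways, and other genes that p53 induces did not pass: GADD45A differed by -0.34, SESN2 by -0.57 and BTG2 by 0.47, with standard errors of 0.48, 0.3 and 0.31.

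Of 26 mitosis genes, 3 were higher and 0 lower, with a median of 0.118. These were NEK7, a kinase of the spindle (0.55, limma adjusted p = 0.37), CEP85, a centrosome protein (0.48, adjusted p = 0.358), and DTL, which marks replication proteins for degradation (0.46, adjusted p = 0.34). CEP85 was at 0.20, 0.08 and 0.23 with EVI1-AQA and at -0.38, -0.24 and -0.31 with the empty vector, with groups clearly apart. Of 21 genes of DNA replication and repair, 3 were higher (ORC1, DTL and FAAP20, a Fanconi anaemia protein, at 0.40) and 1 lower (RNF2), with a median of 0.059. Of 35 splicing genes, SNRNP40 was higher and 0 were lower (median 0.019). SNRNP40 was at 0.13, 0.06 and 0.33 against -0.43, -0.45 and -0.21.

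Lists for protein synthesis had medians below 0. Of 17 genes of translation and tRNA charging, 0 were higher and 1 was lower, YARS (-0.48, limma adjusted p = 0.308), and the median was -0.186. Of 8 mitochondrial ribosomal proteins, 0 were higher and 2 were lower, MRPL9 (-0.57, adjusted p = 0.363) and MRPL24 (-0.54, adjusted p = 0.263), and the median was -0.202. MRPL24 was at -0.35, -0.20 and -0.11 with EVI1-AQA and at 0.56, 0.15 and 0.25 with the empty vector. Its groups were apart, whereas the EVI1-AQA value of MRPL9 lay above its control in batch 1 (0.12 against -0.08). Of 5 cytosolic ribosomal proteins, RPS27 was higher by 1.27 (standard error 0.46, adjusted p = 0.287), 0 were lower, and the median was -0.146. RPS27 was at 0.70, 0.41 and 0.80 with EVI1-AQA and at -1.26, -0.73 and 0.09 with the empty vector, and an untransfected sample reached -2.17, so the row varied widely among controls. RPS27 has near-identical pseudogene copies that can share its reads, and the other 4 members ran from -0.18 to -0.03.

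Metabolic lists were mixed. Of 15 genes of cholesterol and lipid metabolism, 2 were higher, the peroxisomal transporter ABCD3 (0.50, limma adjusted p = 0.253) and the sterol carrier SCP2 (0.42, adjusted p = 0.341), and 2 lower, among them the mevalonate pathway kinase PMVK (-0.43, adjusted p = 0.381), with a median of 0.04. Of 12 genes of the respiratory chain, COA6, an assembly factor, was higher (0.49, adjusted p = 0.417) and 0 were lower (median 0.102). Of 12 thiol antioxidant genes, the peroxidase PRDX1 was higher (0.49, adjusted p = 0.393) and 0 were lower (median -0.086). PRDX1 rested on its empty vector sample of batch 3, at -0.91, beside -0.03 and 0.05, and the difference without that batch was 0.176, which did not pass.

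Of 16 immediate early and stress genes, DUSP12 was lower and 0 were higher (median -0.167). DUSP12 was at -0.58, -0.51 and -0.41 with EVI1-AQA and at 0.13, -0.16 and 0.07 with the empty vector. No member passed among 4 proteasome genes (median 0.07), 6 interferon response genes (median 0.216), 8 haematopoietic genes (median 0.018), 6 genes of the S100 group (median -0.124) and 3 snoRNA host genes (median -0.098). ISG15, an interferon-induced modifier, had the largest difference among the interferon genes, at 0.47 (standard error 0.34, not past the threshold).

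Over the lists, 27 genes passed the threshold, 17 higher and 10 lower, beside 11.8% of all rows. The size of each list is given above, some lists share genes, and the count is not read as an excess over that share. Only ORC1 and SNRNP40 passed without each batch in turn. The other 25 did not pass without at least 1 batch, 22 of them without batch 1, 9 without batch 2 and 10 without batch 3. Besides those given above, the difference shrank by over 1.5 times without batch 1 in TAF13 (0.32), SMYD3 (-0.363), CHD1L (-0.119), DTL (0.276), YARS (-0.313), MRPL24 (-0.354) and PMVK (-0.273). It did so without batch 2 in KDM4A (-0.0858), COA6 (0.247) and MRPL9 (-0.295).

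The same rows were set beside the EVI1-WT cells, which ask whether the serine-to-alanine change matters without added damage. These comparisons share samples, EVI1-WT against empty vector the controls and EVI1-AQA against EVI1-WT the EVI1-AQA samples, so their values are given side by side only. Over the 76 higher rows the median was 0.281 for EVI1-WT against empty vector, and over the 71 lower rows -0.253. RRAGC had EVI1-WT values of 0.23, 0.05 and 0.04, between those of the empty vector and of EVI1-AQA, and ORC1 had values of 0.02, 0.18 and 0.32, which overlapped those of EVI1-AQA. EVI1-WT minus empty vector was 0.65 (standard error 0.17) for RRAGC and 0.60 (0.14) for ORC1. Both passed the unadjusted threshold, each with a limma adjusted p of 0.721. The difference of EVI1-AQA from EVI1-WT was 0.23 (95% interval -0.12 to 0.59) for RRAGC and 0.14 (-0.16 to 0.44) for ORC1. Both intervals include 0, which does not show that the proteins act alike.

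Between EVI1-AQA and EVI1-WT, 45 rows on chromosome 1 (3.98%) had an unadjusted limma p under 0.05, against 3.37% of the whole table, and 0 passed after adjustment over all rows. Most named rows were chosen by these same EVI1-AQA samples against the empty vector. That choice shifts their differences from EVI1-WT the same way, and the 95% intervals are not corrected for it. Of the rows called higher against empty vector, 9 passed here, and of those called lower 16, all in the direction of the choice. Among the named rows past the unadjusted threshold, C1orf50 differed (EVI1-AQA minus EVI1-WT) by -0.59 (95% interval -1.01 to -0.18). Its EVI1-WT values were 0.29, 0.20 and -0.17, all above the EVI1-AQA values of -0.72, -0.33 and -0.41. MKNK1 differed by -0.38 (-0.69 to -0.08), RP4-758J18.2 by -0.38 (-0.76 to -0.01) and DUSP12 by -0.36 (-0.69 to -0.03). Higher with EVI1-AQA were SNRNP40 by 0.36 (0.06 to 0.66) and CEP85 by 0.44 (0.01 to 0.86). SNRNP40 with EVI1-WT was at -0.25, -0.27 and -0.04, below all EVI1-AQA values and overlapping the empty vector. KAZN had EVI1-WT values of -0.13, -0.43 and -0.22 and a difference between the proteins of 0.11 (-0.27 to 0.49).

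Untransfected cells were then set beside both groups. Over the higher rows the median difference was 0.479 between EVI1-AQA and untransfected cells and -0.0724 between empty vector and untransfected cells. Over the lower rows these were -0.576 and -0.0288. All of these rows were chosen by p from the same EVI1-AQA and empty vector samples. That choice moves the medians apart, so they add no support. RRAGC was at -0.55, -0.21 and -0.67 in untransfected cells and RNPEP at 0.24, 0.53 and 0.30, overlapping the empty vector values and apart from those of EVI1-AQA in both genes. Of the 24 rows first by p, untransfected values overlapped those of the empty vector in 22 and those of EVI1-AQA in 6. In 5 rows they overlapped both. The 24 rows were chosen by the difference between EVI1-AQA and empty vector, and the matching shares over all rows were not counted. KAZN was unlike RRAGC and RNPEP, with untransfected values of -0.15, -0.15 and 0.17 that lay below all empty vector values and overlapped those of EVI1-AQA. Its difference was 0.50 between empty vector and untransfected cells, past the unadjusted threshold, and -0.10 between EVI1-AQA and untransfected cells. For RP4-665J23.1 these differences were 0.55, also past the threshold, and -0.34, and for KDM1A they were -0.30 and 0.03, neither past it.

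The comparison of EVI1-AQA with empty vector was also read in the 6 samples that received H2O2, which are other samples than the untreated ones. On chromosome 1, 79 rows (6.98%) had an unadjusted limma p under 0.05 there, against 7.16% of the table, and 0 of them passed after adjustment. Without batch 2 the count was 51, and without the 3 libraries that went against their labels 102. Of the 147 rows past the threshold in untreated cells, 62 (42.2%) had the same sign after H2O2, against 535 (47.3%) of all rows on chromosome 1. Without those libraries these were 71 (48.3%) and 568 (50.2%). The median difference after H2O2 was -0.102 over the higher rows and 0.0075 over the lower rows, and without these libraries -0.0806 and -0.0268. Of the 76 higher rows, 2 were higher and 5 lower past the threshold after H2O2, and of the 71 lower rows 0 were lower and 5 higher. Without the 3 libraries these were 2 and 7, and 2 and 4. In batch 3, where neither sample went against its label, 31 of the higher and 36 of the lower rows kept their sign. The part that the 3 libraries had in these values was not tested beyond leaving them out.

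Tested as a change of the EVI1-AQA effect between H2O2 and untreated cells, 127 rows on chromosome 1 (11.2%) had an unadjusted limma p under 0.05, against 11.4% of the table, and 0 of them passed after adjustment. Without the 3 libraries the count was 113. ARHGEF16 was among them, higher by 1.00 in untreated cells and at -0.63 after H2O2 (standard error 0.26), past the threshold in both, but at -0.19 and no longer past it after H2O2 once the 3 libraries were left out. SNRNP40 went from 0.54 to -0.37 (standard error 0.14), also past it in both, and without the 3 libraries to -0.48. RRAGC and VANGL2 differed by -0.15 (standard error 0.17) and -0.20 (0.24) after H2O2, ORC1 by 0.21 (0.14) and RNPEP by 0.00097 (0.13), none past the threshold. Without the 3 libraries these differences were 0.05 for RRAGC, -0.49 for VANGL2, 0.15 for ORC1 and -0.09 for RNPEP, again none past it, and the sign of the H2O2 difference changed in 8 of the 24 rows first by p. PRDX1 was higher in both, by 0.49 in untreated cells and by 0.48 after H2O2 (standard error 0.22), or 0.68 without the 3 libraries.

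The spread shared by all groups includes the 3 departing libraries. The separating row was found by its untreated gap and these libraries were named by its values. Its adjusted p-values are therefore no test, and only the standard errors with and without the libraries are of use. In the unnamed separating row, the untreated difference of 6.85 had a standard error of 2.09 and a limma adjusted p of 0.237 with all 24 samples, a standard error of 0.57 and an adjusted p of 2.2e-05 without those libraries, and a standard error of 0.49 and an adjusted p of 0.000314 in the 12 untreated samples.

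**Figure D4:**
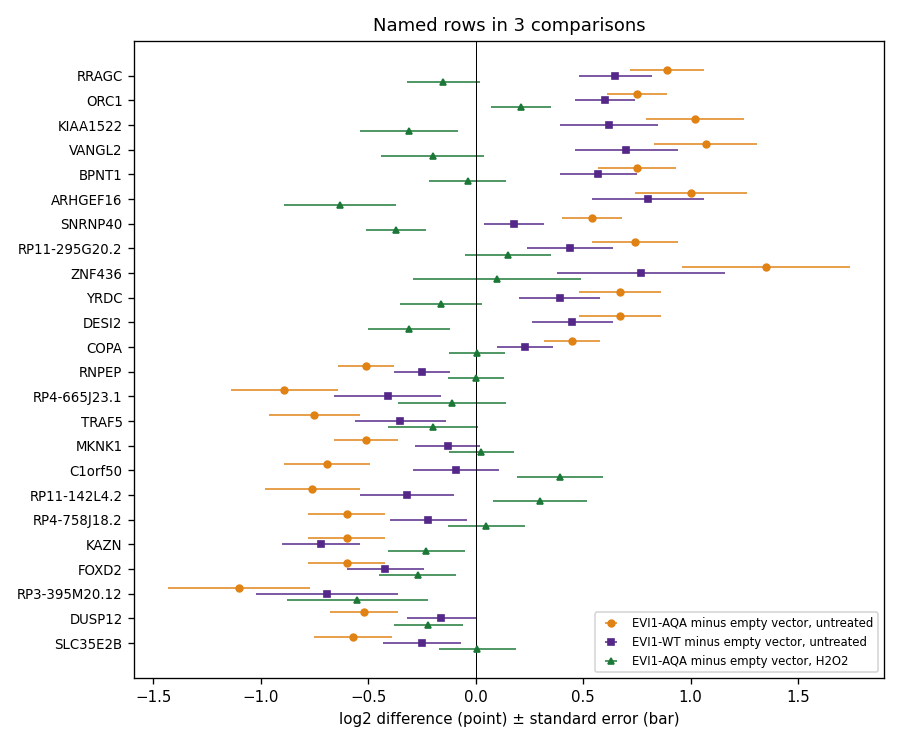
Log2 differences (points) and standard errors (bars) of the 24 rows first by p, for EVI1-AQA minus empty vector in untreated cells (orange circles), EVI1-WT minus empty vector in untreated cells (purple squares) and EVI1-AQA minus empty vector after H2O2 (green triangles). The orange and purple comparisons share their control samples, and the rows were chosen by the orange values. After H2O2 the values ran from -0.63 (ARHGEF16) to 0.39 (C1orf50), with 2 of the 6 samples against their labels, and from -0.49 to 0.54 without the 3 departing libraries, which are not plotted separately.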

How the data were processed

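RNA of 24 samples (8 groups of 3) was sequenced by the authors from the 3′ ends of polyadenylated transcripts and processed with the Ensembl annotation of GRCh38 in Qlucore Omics Explorer, where transcripts under an FPKM of 10 were cut. The authors deposited normalized log2 values, and the centring within batches that they show is not described in the sources used here. Whether counting used strand is not given there either. No per-sample column was left out, and depth is unknown, so 3 samples per group limit the precision.

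Groups and pairing came from the plasmid, treatment and batch labels, the batch being the replicate number. The centring fixes the correlation of same-numbered deviations, so these cannot check the pairing. Group means with batch as a block were fitted to all 24 samples and 11579 rows in limma 3.58.1 (R 4.3.3), with 14 residual and 5.04 prior degrees of freedom and two-sided tests. Thresholds were an unadjusted p of 0.05 and a Benjamini-Hochberg adjusted p of 0.05. The fit was tested on simulated data. Alternatives were no block, 12 or 6 samples only, leaving out 3 H2O2 libraries or each batch, no moderation, sample median centring and quantile normalization.

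Named rows were the 12 lowest by p in each direction with the same sign in all batches, list members past the threshold, 9 genes linked to EVI1 or early stress, and FGGY. The results of 2 of these rows are not reported here. Members and lists were chosen with earlier results of these data known. The H2O2 counts and FGGY were added to the alternatives after the data were seen. Genes were placed with GENCODE v44, in which 94.1% of identifiers (10892) were found, and promoters came from RefSeq. Tables and plots were made in Python 3.11.15 with pandas 2.3.3, numpy 2.4.6 and matplotlib 3.10.9.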

Additional observations from a re-analysis of the deposited data

Results flagged for a closer look

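In 9 named rows, EVI1-AQA lay on one side of the empty vector in all 3 batches of untreated cells and on the other side in all 3 batches after H2O2. The change of the effect (H2O2 minus untreated, log2, limma) was -1.33 for KIAA1522 (adjusted p = 0.126), -1.63 for ARHGEF16 (adjusted p = 0.119), -0.90 for SNRNP40 (adjusted p = 0.119), -0.98 for DESI2 (adjusted p = 0.184), -0.75 for FAAP20 (adjusted p = 0.251), -0.52 for SCP2 (adjusted p = 0.426) and -0.52 for SKI (adjusted p = 0.403). It was 1.08 for C1orf50 (adjusted p = 0.155) and 1.11 for SMYD3 (adjusted p = 0.295). None passed after adjustment over all rows. All 9 had an unadjusted p under 0.05, beside 11.4% of all rows. They were picked for opposite signs, most of them from rows named for their untreated difference, and that choice favours a low p. These p-values are therefore no test of the pattern, and how many of all rows show it was not counted. After H2O2, EVI1-AQA replicate 1 and empty vector replicate 2 went against their labels in the separating row, and in batch 3, where neither did, the differences were -0.22 for KIAA1522, -0.23 for ARHGEF16, -0.46 for SNRNP40, -0.27 for DESI2, 0.65 for C1orf50, -0.16 for FAAP20, -0.05 for SCP2, -0.63 for SKI and 0.37 for SMYD3.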

How the results depend on the processing

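The count of rows past an adjusted p of 0.05 was 0 with the batch as a block, and 10 without the replicate block, 1 in the 12 untreated samples, 1 in the 6 samples of the comparison, 3 without the 3 departing H2O2 libraries and 4 after quantile normalization. Leaving out each replicate in turn gave 37 to 71 higher and 33 to 91 lower rows on chromosome 1, 396 to 663 higher and 376 to 715 lower rows over the table, and 51 to 66 rows on chromosome 1 after H2O2, with the lowest H2O2 count without replicate 2 and the lowest of the others without replicate 1. PRDM2 reversed to -0.0163 without replicate 1 and -0.0476 without replicate 2, and RBBP4 and SETDB1 to -0.0483 and -0.0019 without replicate 3. With PRDM2 at 0.066 without replicate 3, RBBP4 at 0.176 without replicate 2 and SETDB1 at 0.138 without replicate 1, these 3 ranged around 0. Leaving out a replicate, 119 values of the named rows kept direction and side of the threshold, 48 no longer passed and 4 reversed, and these fits rest on fewer samples. Under the other alternatives 371 kept both, 25 no longer passed and 3 newly passed, all 3 for HDAC1. The causes were not tested.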
